A study of Mus musculus with 9 samples.

Results

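Of 47729 genes in the deposited expression table, 7 genes of peripheral nerve biology are described here: Npy, which encodes neuropeptide Y, the neurotrophin genes Bdnf and Ntf3, the neurotrophin receptor gene Ngfr, the growth-associated gene Gap43, and the Schwann cell genes Sox10 and S100b. They were chosen by name, and a gene with a mean below 3 on the log2 scale of the table counted as not measured. By that bound 6 of the 7 were measured, the lowest of them Sox10 with a mean of 6.24 over the 9 libraries, and Ntf3 was not, with a mean of 0.05. When the list was made it was already known that Npy was higher in primed than in naive libraries and that Gap43 and a list of Schwann cell genes were higher in non-primed than in naive ones, so the differences from naive of Npy, Gap43 and the Schwann cell genes, Ngfr, Sox10 and S100b included, are descriptions without p-values in both comparisons, which share the naive libraries.

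The libraries were RNA-seq profiles of fibroblasts of the synovium, the membrane that lines joints, which were digested from paws of wild-type BALB/c mice and grown for 5 passages. The 3 primed cultures came from left paws injected with monosodium urate (MSU) crystals, the crystals of gout, on day 0 and again on day 9, the 3 non-primed cultures from right paws injected on day 9 only, and the 3 naive cultures from paws with no injection. All labels give day 18 as the time point. Paw side and priming cannot be told apart, the labels name no animal, and the design text states that paws need not come from different mice, so a p-value here reflects how far these cultures spread, which may be technical.

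Joints are supplied by sympathetic fibres, which release neuropeptide Y with noradrenaline, and by sensory fibres, which depend on neurotrophins for survival. Schwann cells, the glia that wrap peripheral axons, are specified by the transcription factor SOX10, contain the calcium-binding protein S100B and, after nerve damage, re-express the low-affinity neurotrophin receptor p75 (Ngfr) and the growth-cone protein GAP43. Some of these genes are also active outside nerve: S100b in chondrocytes and adipocytes, Ngfr in some stromal cells, and Npy in some immune cells. In cultures of mixed origin, fewer cells of a type and less RNA per cell cannot be told apart.

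The promoter windows of the members that carry the main patterns are shown because Npy had the largest differences between groups, while Ngfr and S100b belong to the genes that varied together. Each window runs 5′ to 3′ on the strand of the gene, from 250 bases before the start to 50 after it, as RefSeq gives it on GRCm38.p6. Capitals mark GGGCGG or its reverse complement, the GC box. The windows are chr6:49822460-49822759 on the plus strand for Npy, chr11:95587649-95587948 on the minus strand for Ngfr and chr10:76253586-76253885 on the plus strand for S100b.
Npy: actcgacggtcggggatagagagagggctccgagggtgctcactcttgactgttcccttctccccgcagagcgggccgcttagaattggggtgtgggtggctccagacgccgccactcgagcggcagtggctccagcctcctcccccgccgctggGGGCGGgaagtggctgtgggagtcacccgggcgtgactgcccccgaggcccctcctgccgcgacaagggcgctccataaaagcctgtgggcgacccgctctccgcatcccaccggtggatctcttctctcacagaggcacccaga
Ngfr: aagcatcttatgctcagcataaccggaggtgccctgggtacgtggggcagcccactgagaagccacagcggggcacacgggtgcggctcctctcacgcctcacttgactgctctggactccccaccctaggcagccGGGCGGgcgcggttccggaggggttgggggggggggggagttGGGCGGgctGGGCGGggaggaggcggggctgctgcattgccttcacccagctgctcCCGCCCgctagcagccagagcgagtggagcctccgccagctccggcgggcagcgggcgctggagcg
S100b: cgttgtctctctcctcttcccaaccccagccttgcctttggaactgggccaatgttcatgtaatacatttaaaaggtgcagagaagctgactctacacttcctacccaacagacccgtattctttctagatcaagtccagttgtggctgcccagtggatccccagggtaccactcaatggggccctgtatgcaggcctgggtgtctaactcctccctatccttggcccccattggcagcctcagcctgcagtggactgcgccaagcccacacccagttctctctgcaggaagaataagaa

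Searched on both strands, the GC box stood once in the Npy window (1 match), at 4 places in that of Ngfr and at 0 in that of S100b, and 35.7% of the 32851 mouse promoter windows in the table held it. The Ngfr window also held 1 match to ACGTG, the core that hypoxia-inducible factors bind, found in 19.6% of all windows, and the other 2 windows held 0. None of the 3 windows held ACAAAG, a SOX-type motif (18.7% of all windows), TATAAA (13.6%) or TGACTCA, the AP-1 motif (5.20%). The windows of Npy and Ngfr were 68.0% and 71.7% G or C and that of S100b 53.7%, against a median of 52.7% over all windows. A match describes letters and not a bound site.

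Npy (ENSMUSG00000029819, chromosome 6, 49822710 to 49829507, plus strand, GRCm38 with GENCODE M21) was the member that separated injected from naive cultures. The authors' regularised log (rlog) values, in log2 units, were 8.21, 8.44 and 7.41 in primed libraries 1 to 3. They were 7.71, 7.66 and 7.74 in the non-primed libraries and 6.05, 6.36 and 5.89 in the naive libraries. All 6 injected libraries lay above all 3 naive ones, with a gap from 6.36 in the highest naive to 7.41 in the lowest injected library, and the primed and non-primed ranges overlapped. The group means were 8.02 ± 0.54 in primed, 7.70 ± 0.04 in non-primed and 6.10 ± 0.24 in naive libraries (SD, n = 3 each).

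On the same scale, Npy was higher in primed than in naive libraries by 1.92 (SE 0.25, 95% confidence interval 1.34 to 2.49) and in non-primed than in naive libraries by 1.60 (SE 0.25, 95% confidence interval 1.03 to 2.18). With limma, fitted to all 9 libraries and adjusted over 15623 genes, 15 genes (0.096%) were higher in primed than in naive cultures at an adjusted p below 0.05 and 18 genes (0.115%) in non-primed than in naive cultures. Npy is among the 15 and not among the 18. Both only describe a gene that was listed with its primed and naive levels known, and neither is a test of it. Between primed and non-primed libraries the difference was 0.31 (SE 0.25, 95% confidence interval -0.26 to 0.89, limma adjusted p = 1.00). The 3 group means accounted for 90.0% of the variance of Npy over the 9 libraries, against a median of 28.3% over all genes tested.

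The difference of Npy from naive changed little in size with single libraries left out. In primed cultures it was 1.82 without primed 1, 1.71 without primed 2, 2.22 without primed 3 and 1.89 without naive 1. In non-primed cultures it was 1.73 without naive 2 and 1.50 without naive 3. Nothing is read from which side of the threshold each of these fits fell on.

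**Figure D1:**
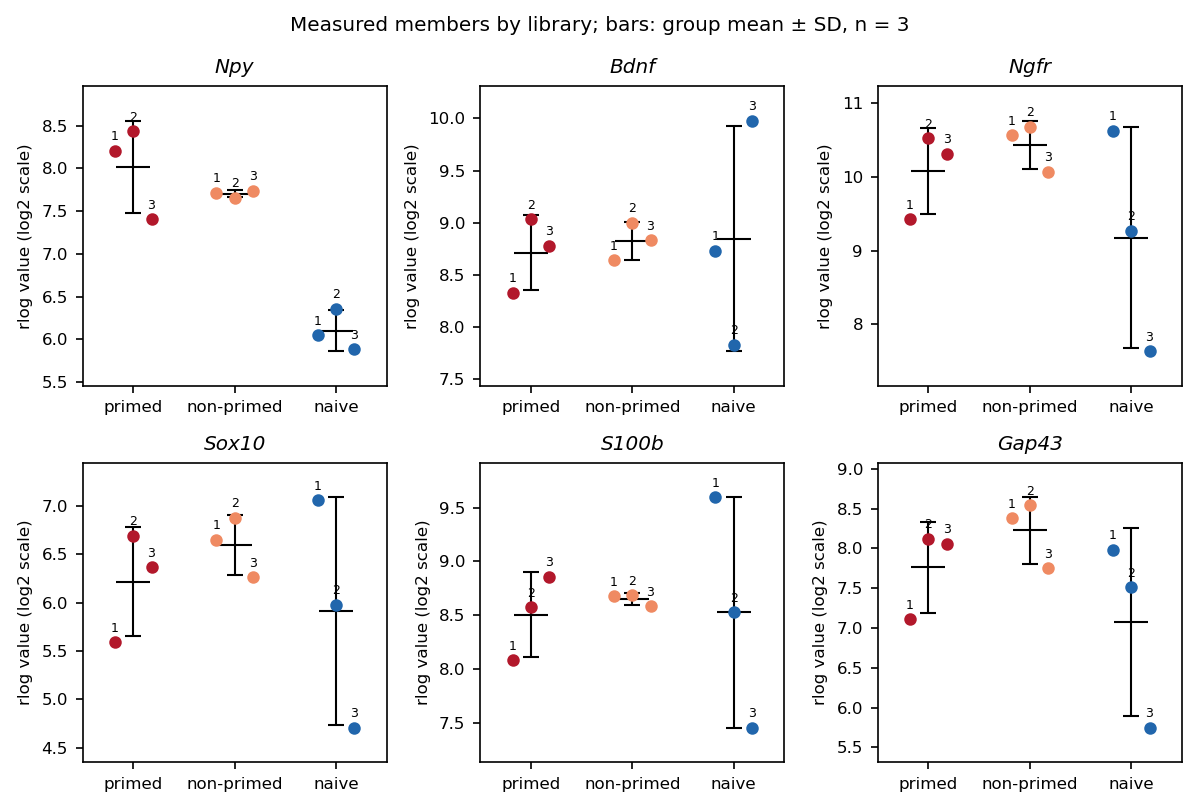
Rlog values (log2 scale, vertical axes) of the 6 measured members in each library, with group means and SD (n = 3) as bars and replicate numbers above the points. Npy lies above all naive values in the 6 injected libraries, whereas the other 5 members overlap between groups and naive 3 stands at an extreme of each.

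The receptor gene Npy1r, singled out after its values were seen, was also higher in all injected than in all naive libraries, with the non-primed mean above the primed one. Npy1r encodes the Y1 receptor, which binds neuropeptide Y, and lies on chromosome 8 (66697192 to 66706792). Its rlog values were 7.96, 8.82 and 8.41 in primed libraries 1 to 3, 8.53, 8.61 and 8.50 in non-primed libraries, and 7.22, 7.61 and 6.11 in naive libraries. The lowest injected value was that of primed 1 and the lowest naive value that of naive 3. Npy1r differed by 1.42 (SE 0.36, limma adjusted p = 0.147) in primed and by 1.57 (SE 0.36, limma adjusted p = 0.129) in non-primed against naive libraries, short of the threshold. Over the genes tested, 8.97% were higher without overlap in primed than in naive libraries and 11.6% in non-primed than in naive ones.

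No other gene of the neuropeptide Y family list was measured. Of its 8 genes, 2 passed the filter, Npy and Npy1r. The other receptor genes Npy2r, Npy4r, Npy5r and Npy6r had means below the bound of 3, and Pyy and Ppy, the genes of the related gut peptides, were listed at 0 in every library.

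Genes that cut or trim peptide precursors gave values short of the threshold. Of the 9 listed, 8 were tested and 0 passed in any comparison (limma adjusted p from 0.106). Cpe, the carboxypeptidase that trims cut precursors, differed by 0.80 (SE 0.17) in primed and by 0.65 (SE 0.17) in non-primed against naive libraries. Pcsk1, a convertase of the secretory granule, differed by 0.95 (SE 0.26) and 0.68 (SE 0.26) in the same comparisons. For Cpe and Pcsk1 the injected libraries did not overlap with the naive ones. Pcsk2, the other granule convertase, differed by 0.91 (SE 0.38) and 0.51 (SE 0.38), and its non-primed and naive ranges overlapped. The median difference of the 8 genes was 0.24 in primed and 0.26 in non-primed against naive libraries, beside medians of -0.00 and 0.01 over all genes tested.

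**Figure D2:**
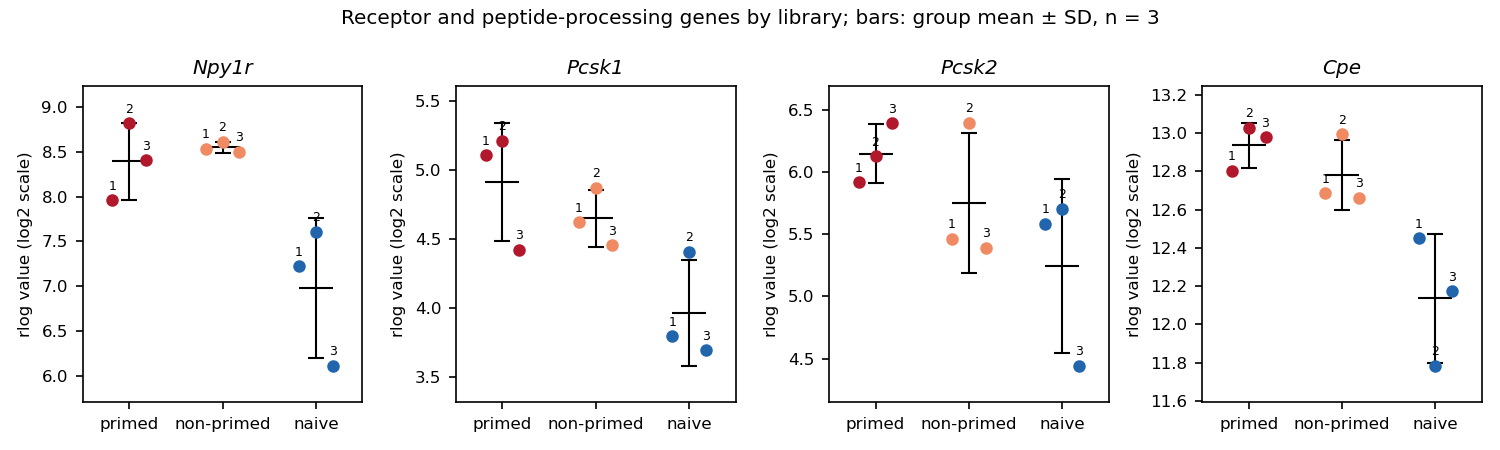
Rlog values (log2 scale) of the receptor gene Npy1r and the peptide-processing genes Pcsk1, Pcsk2 and Cpe in each library, with group means and SD (n = 3). For Npy1r, Pcsk1 and Cpe all injected libraries lie above all naive ones, and for Pcsk2 the non-primed and naive groups overlap.

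Other neuropeptide genes were mostly not measured. Of 21 listed, 15 were below the filter, 5 of them at 0 in every library, and 0 of the 6 tested passed in any comparison. Adm, the gene of the vasodilator adrenomedullin, differed by 0.62 (SE 0.12, limma adjusted p = 0.100) in primed and by 0.56 (SE 0.12, limma adjusted p = 0.118) in non-primed against naive libraries. Calca, the gene of calcitonin and of the sensory neuropeptide CGRP, differed by 1.12 (SE 0.41) and 1.20 (SE 0.41), and Penk, the enkephalin precursor, by -0.98 (SE 0.49) and -1.02 (SE 0.49).

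Markers of the neurons known to make neuropeptide Y were mostly not measured. Th and Dbh, the genes of the noradrenaline-making enzymes, were below the filter, Th between -1.57 and -1.50 and Dbh at 0 in all 9 libraries. Of 8 sympathetic markers, 3 were measured, namely Slc6a2, Hand2 and Ddc, and their mean was 6.93 to 7.20 in primed, 6.55 to 7.10 in non-primed and 6.50 to 7.36 in naive libraries. Of 14 general neuron markers, 6 were measured, with a mean of 5.38 to 5.48 in primed, 5.56 to 5.65 in non-primed and 5.26 to 5.95 in naive libraries. Prph, the peripheral neuron filament, was one of the 6, at 3.50, 3.27 and 2.95 in primed, 3.10, 3.17 and 3.17 in non-primed, and 3.93, 3.57 and 3.84 in naive libraries 1 to 3, all injected values below the naive ones. Its mean of 3.39 lay near the filter bound. Tubb3 went the other way, by 0.34 (SE 0.43) in primed and 0.99 (SE 0.43) in non-primed against naive libraries. The non-primed values of Tubb3 lay above the naive ones without overlap. Stmn2 differed by -0.63 (SE 0.65) and -0.54 (SE 0.65), and Uchl1 by 0.03 (SE 0.31) and 0.07 (SE 0.31). Of the 6, 3 were above 0 in primed and 4 in non-primed against naive libraries. The neuron-specific splicing factor Rbfox3 and the synaptic gene Snap25 were below 0 in every library.

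Several of the genes whose profile over the 9 libraries lay nearest to that of Npy are known from macrophages and other blood cells. Likeness was the root-mean-square distance between values centred on the mean of each gene, in log2 units, with predicted genes left out. The nearest 5 were Cd300a, an inhibitory receptor of myeloid cells, at 0.27, Adap1 at 0.28, Plcb2, a phospholipase C of haematopoietic cells, at 0.29, Fcna, a ficolin made by macrophages, at 0.30 and Pla2g7, a secreted phospholipase that inactivates platelet-activating factor, at 0.30. The median distance of all genes from Npy was 0.91.

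Macrophage markers moved with the groups as well. The mean of 14 markers was 10.02, 10.65 and 9.45 in primed libraries 1 to 3, 9.67, 10.25 and 9.74 in non-primed libraries, and 7.60, 9.73 and 7.27 in naive libraries. All 14 were higher in primed and in non-primed than in naive libraries, 0 of them past the threshold (limma adjusted p from 0.147 and from 0.170), with medians of 1.95 and 1.78. In naive 2 the macrophage mean of 9.73 lay within the injected range. Its Npy value of 6.36 was the highest naive one and below all injected ones. Cd300a, by comparison, was at 6.77 in naive 2, against 5.57 and 5.39 in naive 1 and naive 3 and 7.30 to 8.28 in the injected libraries. With the macrophage mean as a covariate the difference of Npy from naive was 1.42 (SE 0.30) in primed and 1.15 (SE 0.29) in non-primed cultures. Skeletal muscle markers, 7 of 12 measured, had a mean of 5.11 to 6.32 in primed, 5.43 to 6.19 in non-primed and 4.90 to 5.14 in naive libraries. No gene of the 11 marker lists passed in any comparison, which for the Schwann cell list is only a description. Because all 14 macrophage markers were higher in both injected groups, the covariate fit cannot separate macrophage RNA from group. The part of macrophage or muscle RNA in the Npy difference was not tested.

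The neurotrophin genes did not separate the groups. Bdnf, the gene of brain-derived neurotrophic factor (ENSMUSG00000048482, chromosome 2, 109674700 to 109727007, plus strand), had rlog values of 8.33, 9.03 and 8.78 in primed libraries 1 to 3, 8.64, 9.00 and 8.83 in non-primed libraries, and 8.73, 7.83 and 9.98 in naive libraries. The lowest and the highest value of the 9 were both naive, in naive 2 and naive 3. The naive SD of 1.08 exceeded that of 96.5% of the genes tested in the same libraries. Bdnf differed by -0.13 (SE 0.46, 95% confidence interval -1.17 to 0.90, limma adjusted p = 0.911) in primed and by -0.02 (SE 0.46, 95% confidence interval -1.06 to 1.02, limma adjusted p = 0.988) in non-primed against naive libraries. An antisense gene, Gm45346, overlaps Bdnf, and because the strand setting of the counting is not given in the sources used here, reads of the 2 genes may not be separated.

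The sign of the Bdnf difference turned with the naive library left out. Without naive 2 it was -0.64 in primed and -0.53 in non-primed against naive libraries, and without naive 3 it was 0.43 and 0.54. The genes nearest to Bdnf in profile were Cdh3, which encodes P-cadherin, at a distance of 0.12, Erc2 and Garem2 at 0.14 each, the receptor tyrosine kinase gene Axl at 0.16 and Tpm1, a tropomyosin gene, at 0.17. The median distance from Bdnf over all genes was 0.58, and all 5 genes had their highest value in naive 3.

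Ntf3, the gene of neurotrophin-3 (ENSMUSG00000049107, chromosome 6, 126101412 to 126166910, minus strand), lay between -0.03 and 0.22 in all 9 libraries and was not tested. Ntf5, the gene of neurotrophin-4, was measured and had 5.64, 5.56 and 5.38 in primed, 5.27, 5.21 and 5.34 in non-primed, and 5.37, 5.21 and 5.22 in naive libraries 1 to 3. Its primed values lay above both other groups without overlap, by 0.26 (SE 0.13, limma adjusted p = 0.348) over naive and 0.25 (SE 0.13, limma adjusted p = 1.00) over non-primed libraries. Between primed and non-primed libraries 6.31% of the genes tested were higher without overlap.

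Ngfr (ENSMUSG00000000120, chromosome 11, 95568818 to 95587735, minus strand) encodes the p75 receptor, which binds all neurotrophins. Its rlog values were 9.42, 10.52 and 10.31 in primed libraries 1 to 3, 10.56, 10.68 and 10.07 in non-primed libraries, and 10.63, 9.27 and 7.64 in naive libraries. Naive 1 was at the level of the highest injected libraries and naive 3 was far below all others, so the groups overlapped. Ngfr differed by 0.91 (SE 0.64, 95% confidence interval -0.56 to 2.37) in primed and by 1.26 (SE 0.64, 95% confidence interval -0.21 to 2.73) in non-primed against naive libraries. Without naive 3 these differences were 0.14 and 0.49. Its naive SD of 1.50 exceeded that of 99.1% of the genes tested.

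The partners of Ngfr gave no call either, with 0 of 13 tested genes of that list past the threshold in any comparison. Sorl1, a sorting receptor, had the smallest p-values, with a difference of -0.90 (SE 0.22, limma adjusted p = 0.137) in primed and of -1.35 (SE 0.22, limma adjusted p = 0.0583) in non-primed against naive libraries, without overlap in either. Maged1, an adaptor of p75, differed by 0.24 (SE 0.13) and 0.19 (SE 0.13). Ntrk2 and Ntrk3, which encode tyrosine kinase receptors of neurotrophins, differed by -0.62 (SE 0.86) and -0.41 (SE 0.59) in primed and by -0.83 (SE 0.86) and -0.66 (SE 0.59) in non-primed against naive libraries.

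Sox10 (ENSMUSG00000033006, chromosome 15, 79154908 to 79165240, minus strand) had rlog values of 5.59, 6.69 and 6.36 in primed libraries 1 to 3, 6.65, 6.88 and 6.26 in non-primed libraries, and 7.05, 5.98 and 4.71 in naive libraries. The highest and the lowest of the 9 were naive 1 and naive 3. Sox10 differed by 0.30 (SE 0.54) in primed and by 0.68 (SE 0.54) in non-primed against naive libraries, and by -0.30 and 0.08 without naive 3.

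S100b (ENSMUSG00000033208, chromosome 10, 76253853 to 76261159, plus strand) had rlog values of 8.08, 8.58 and 8.86 in primed libraries 1 to 3, 8.68, 8.69 and 8.58 in non-primed libraries, and 9.60, 8.53 and 7.46 in naive libraries. Its naive libraries spanned the whole range of the 9, on both sides of the injected ones. S100b differed by -0.02 (SE 0.45, 95% confidence interval -1.05 to 1.01) in primed and by 0.12 (SE 0.45, 95% confidence interval -0.91 to 1.15) in non-primed against naive libraries. Without naive 3 the differences were -0.56 and -0.41. S100b overlaps Dip2a on the opposite strand.

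Gap43 (ENSMUSG00000047261, chromosome 16, 42248442 to 42340651, minus strand) had rlog values of 7.11, 8.12 and 8.06 in primed libraries 1 to 3, 8.38, 8.55 and 7.75 in non-primed libraries, and 7.98, 7.51 and 5.75 in naive libraries. Naive 3 was lowest and naive 1 lay within the range of both injected groups. Gap43 differed by 0.68 (SE 0.55) in primed against naive libraries and by 1.15 (SE 0.55, 95% confidence interval -0.10 to 2.39) in non-primed against naive libraries, and by 0.02 and 0.48 without naive 3. Its gene spans Mir6540, a microRNA on the same strand.

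Of the 6 measured members, 0 passed between primed and non-primed libraries (limma adjusted p = 1.00 for each). Against naive libraries no count of members, past the threshold or by sign, and no median of the members is read as a result. Npy and the glial genes were listed with those differences known, so the values below describe that choice. Over all genes tested, 0.102% passed in either direction and 0.0064% were lower in primed against naive libraries, 0.141% and 0.0256% in non-primed against naive libraries. An unadjusted p below 0.05 was reached by 16.9% and 15.4% of genes in these comparisons. Between primed and non-primed libraries limma called 0 of 15623 genes and 197 (1.26%) had an unadjusted p below 0.05. Of the 6 members, 4 had a difference above 0 in primed and 5 in non-primed against naive libraries, beside 49.8% and 51.7% of all genes tested. Groups without overlap, with the injected one lower, were found for 0 members and for 8.18% and 10.3% of all genes in these comparisons. The median difference of the 6 members was 0.49 in primed and 0.92 in non-primed against naive libraries, beside medians of -0.00 and 0.01 over all genes tested. Between primed and non-primed libraries 5 of the 6 were lower and Npy alone was higher, beside 50.3% of all genes above 0, with a median of -0.25. All 6 overlapped, and 5.25% of all genes were lower in primed than in non-primed libraries without overlap. The differences of the 5 were between -0.46 and -0.11, each smaller than its SE, which was 0.45 to 0.64.

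**Figure D3:**
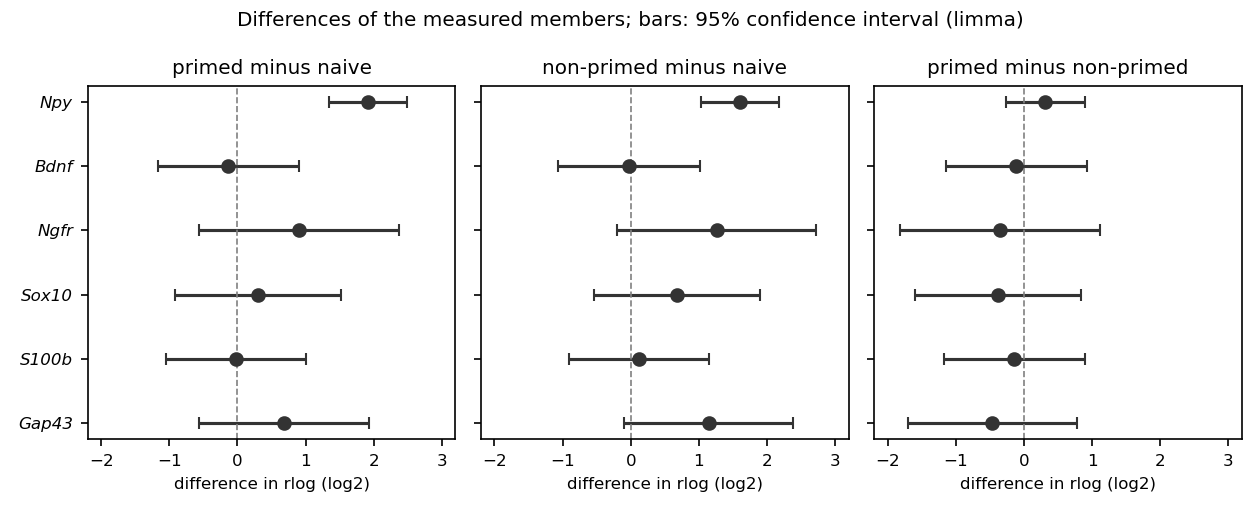
Differences in rlog (log2, horizontal axes) of the 6 measured members in the 3 comparisons, with 95% confidence intervals from the limma fit. The intervals of Npy against naive lie above 0, from 1.34 to 2.49 in primed and from 1.03 to 2.18 in non-primed libraries, and those of the other 5 members span 0 in all comparisons.

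Ngfr, Sox10, S100b and Gap43 varied together from library to library. In each of the 4 genes the lowest library was naive 3, and primed 1 and naive 2 were the next 2 from below. The distance between the profiles of Ngfr and Gap43 was 0.25, and only 0.0640% of the genes tested lay nearer to Ngfr. It was 0.27 between Gap43 and Sox10, 0.32 between Ngfr and Sox10 and 0.31 between Sox10 and S100b. S100b lay farther from Ngfr, at 0.57, and from Gap43, at 0.51. Npy was at 0.85 to 1.04 from these 4 genes and at 1.12 from Bdnf, and Bdnf was at 0.92 to 1.25 from the 4 genes. All the profiles share the same 9 libraries, and 26.5% of all genes tested were lowest in naive 3.

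Some Schwann cell markers other than the members had a similar profile. A list of Schwann cell genes was already known to be higher in non-primed than in naive libraries, so the likeness is a description. Erbb3, the neuregulin receptor of Schwann cells, Cdh19, a cadherin of Schwann cell precursors, and Slitrk6 were among the 5 genes nearest to Ngfr, at 0.15, 0.18 and 0.19, with Myo5b at 0.13 and Pcdh20 at 0.19. Slitrk6 at 0.10, Kcna6 at 0.13, and the cell adhesion gene Nrcam and Erbb3 at 0.18 each were among those nearest to Gap43. The genes nearest to Sox10 were Luzp2, Mmp15, Fgf5, Plekhg1 and the plexin gene Plxnb3, at 0.12 to 0.16. Among those nearest to S100b were the potassium channel gene Kcnj12 at 0.17, Dtna at 0.19, and Synpo2 and Ntm at 0.20 each.

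Erbb3 had rlog values of 8.66, 9.75 and 9.60 in primed libraries 1 to 3, 9.85, 10.08 and 9.49 in non-primed libraries, and 10.03, 8.92 and 7.26 in naive libraries. Cdh19 had 9.28, 9.98 and 10.17 in primed, 10.50, 10.56 and 10.07 in non-primed, and 10.54, 9.47 and 7.46 in naive libraries. In both genes, too, naive 3, naive 2 and primed 1 were the 3 lowest libraries. Of the 18 Schwann cell markers measured, members included, 9 had those 3 libraries lowest, as had 463 of all genes tested (2.96%), and 14 were lowest in naive 3. That set of libraries was picked after the values were seen.

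**Figure D4:**
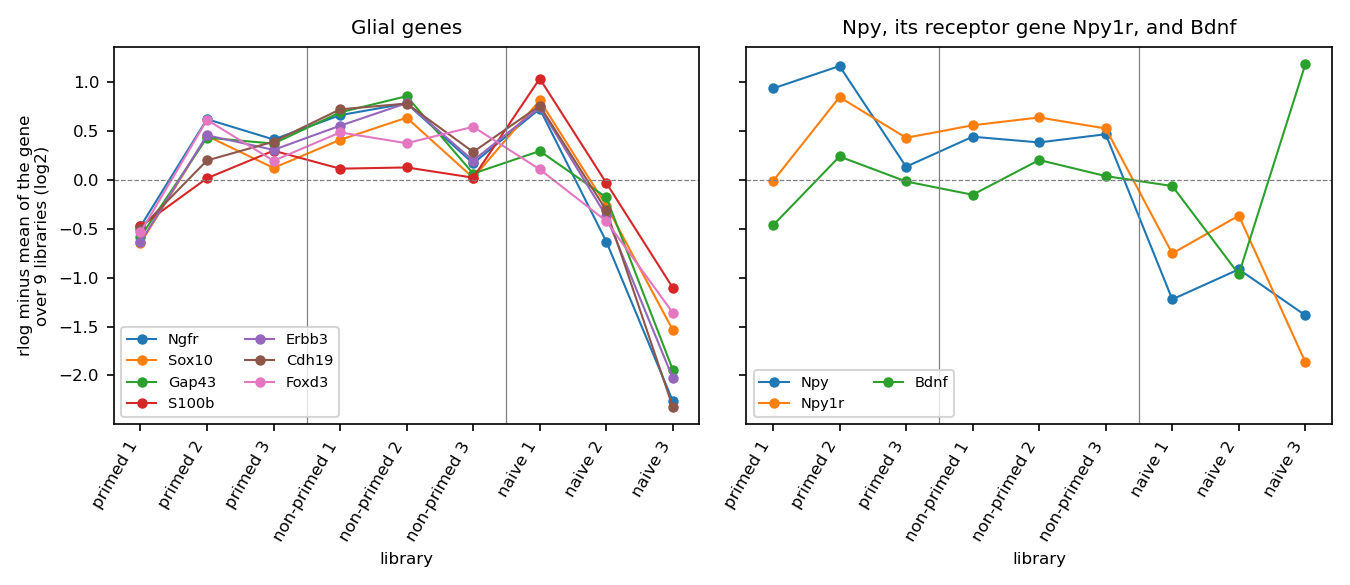
Rlog values minus the mean of each gene over the 9 libraries (log2, vertical axis), by library. Ngfr, Sox10, Gap43 and S100b run together with the Schwann cell genes Erbb3, Cdh19 and Foxd3, with their lowest point in naive 3, whereas Npy and Npy1r are below their means in all naive libraries and Bdnf peaks in naive 3.

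Not all Schwann cell markers followed that profile. Of 22 listed, 4 were below the filter, among them Gfap, an intermediate filament of glia. Mbp, a myelin gene, was lowest in naive 1, at 6.28, against 7.30 and 7.90 in naive 2 and naive 3 and 7.56 to 8.66 in the injected libraries. Prx, the periaxin gene of myelinating Schwann cells, was highest in naive 3, at 7.52. Ncam1 and L1cam, adhesion genes that many cell types express, differed by no more than 0.19 between any pair of group means. Pmp22, a myelin gene also active in fibroblasts, differed by 0.40 (SE 0.11) in primed and by 0.22 (SE 0.11) in non-primed against naive libraries.

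The mean of the 14 measured Schwann cell markers other than the members was 7.60, 8.13 and 7.96 in primed libraries 1 to 3, 8.01, 8.16 and 7.85 in non-primed libraries, and 7.86, 7.62 and 7.04 in naive libraries. Over all 18, 14 were higher in primed and 15 in non-primed than in naive libraries, with medians of 0.53 and 0.64, given as a description. The fibroblast marker mean was 14.44 to 15.04 in primed, 14.77 to 14.96 in non-primed and 14.40 to 15.19 in naive libraries. The median SD over all genes tested was 0.14 in primed, 0.10 in non-primed and 0.22 in naive libraries. The part of culture makeup in the glial values was not tested.

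**Figure D5:**
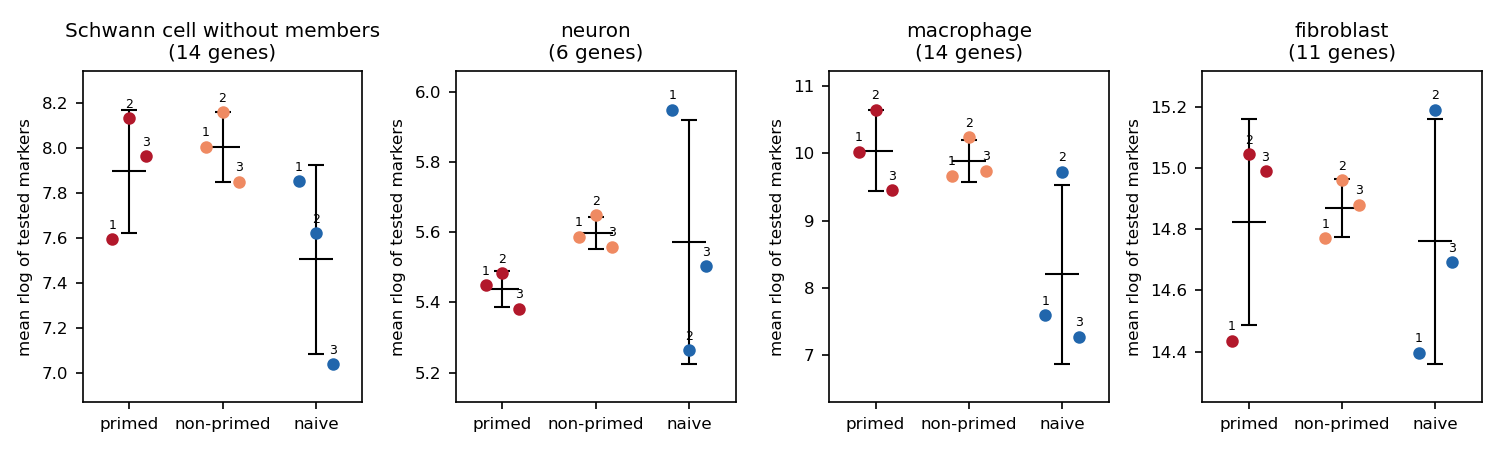
Mean rlog of the measured markers of Schwann cells without the members, neurons, macrophages and fibroblasts in each library, with group means and SD (n = 3). The Schwann cell mean is lowest in naive 3 at 7.04, and the macrophage mean is low in naive 1 and naive 3 but within the injected range in naive 2.

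The families around the glial genes gave no call in any comparison, which for the members in them is only a description. Of the neuregulin and ERBB list 4 genes were tested, of the growth-associated list 9, of the S100 list 10, of the SoxE and neural crest list 8 and of the GDNF and CNTF list 10. Basp1, a membrane protein of growth cones like GAP43, differed by 0.69 (SE 0.34) in primed and 0.96 (SE 0.34) in non-primed against naive libraries, Marcksl1 by 0.61 (SE 0.23) and 0.56 (SE 0.23), and Stmn1 by 0.45 (SE 0.29) and 0.64 (SE 0.29). The growth-associated list as a whole did not rise. Only 4 of its 9 tested genes were above 0 in each of these comparisons, with medians of -0.31 in primed and -0.12 in non-primed against naive libraries. Sox9 and Sox8, the relatives of Sox10, had differences below 0, with Sox9 at -0.70 (SE 0.37) and -0.82 (SE 0.37) and Sox8 at -1.01 (SE 0.37) and -1.09 (SE 0.37). S100a1, a relative of S100b, differed by 0.43 (SE 0.17) and 0.25 (SE 0.17), while S100a11 and S100a13 differed by at most 0.20 between any pair of groups.

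Ptn, the gene of the neurite outgrowth factor pleiotrophin, was in the GDNF and CNTF list. Its values were 11.16, 8.75 and 9.90 in primed libraries 1 to 3, 9.95, 8.85 and 9.83 in non-primed libraries, and 11.49, 12.64 and 11.59 in naive libraries. All injected values lay below the naive ones, with a difference from naive of -1.97 (SE 0.59, limma adjusted p = 0.178) in primed and -2.36 (SE 0.59, limma adjusted p = 0.142) in non-primed cultures. Ctf1, the cardiotrophin gene, differed by -0.53 (SE 0.16) and -0.62 (SE 0.16), and Gfra1, a receptor for GDNF, by -0.61 (SE 0.20) and -0.45 (SE 0.20). Of the 10 genes of that list tested, 4 were above 0 in each of these comparisons, with medians of -0.10 and -0.02. Erbb2 and Egfr differed by no more than 0.23 between any pair of groups.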

How the data were processed

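RNA was sequenced from 9 cultures, 3 per group. The submitters' processing notes name GRCm38, DESeq2, featureCounts from Subread 1.6.1, STAR 2.5.4a and cutadapt 2.5, and the labels' protocols name a stranded mRNA kit. How the transformation was set is not given in the sources used here. Values deposited by the authors are rlog, on a log2 scale, a transformation that shrinks weakly expressed genes to their own average and so understates their differences. Depth is therefore unknown, and precision is that of the spread between 3 libraries.

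Symbols matched 47224 of 47729 identifiers. Genes that varied and had a mean of at least 3 were tested (15623) with limma 3.58.1 in R 4.3.3: 1 mean per group over all 9 libraries, a mean-variance trend, two-sided tests, and Benjamini-Hochberg adjustment over all genes tested, with a threshold of 0.05. The fit was tested on simulated data. With 3 libraries a group, 0.1 is the smallest two-sided p of an exact permutation test.

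The members and the 21 gene lists were chosen with earlier results of these data known. Named genes were all members, from each pathway list the genes that passed or else the 3 with the smallest p, from each marker list the 4 with the highest mean, defining Schwann cell and neuron markers, and the 5 nearest profiles of each member. Npy1r, Ntrk2, Ntrk3, the unmeasured genes of the neuropeptide Y family, Rbfox3, Snap25, Gfap and Prx were added after their values were seen. Some genes that this rule names are not reported here. RefSeq promoter windows matched 5 of the 7 members.

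Deviations of libraries from their group means correlated at 0.418, 0.608 and 0.100 for primed with non-primed libraries 1, 2 and 3. Unlike-numbered pairs of these groups ran from -0.497 to 0.275, the highest being primed 1 with non-primed 3. The libraries may therefore be paired by number, though number 3 gave no clear sign of it. Correlations with same-numbered naive libraries ran from -0.160 to 0.151. Alternatives were other filters, priors, scalings and sample weights, a replicate block, a macrophage covariate, the 2 groups alone and leaving out each library.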

Additional observations from a re-analysis of the deposited data

How the results depend on the processing

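The differences of Npy from naive were known when it was listed, so the side of the threshold is given only to describe the fits. The difference between primed and naive libraries ran from 1.71 to 2.22 with 1 library left out. Among those fits it passed only without primed 3, naive 2 or naive 3. With sample weights it was 1.43 and passed. It stayed at 1.92 but did not pass with no filter, without a variance trend or with the 2 groups alone, and was 1.42 with the macrophage covariate, where it did not pass. Between non-primed and naive libraries it ran from 1.50 to 1.73 with 1 library left out, and among those fits passed only without naive 2 or naive 3. It was 1.61 and passed with sample weights, and was 1.15 with the macrophage covariate. Between primed and non-primed libraries it ran from 0.10 to 0.62 with 1 library left out and was -0.18 with sample weights. With the replicate block it was 1.92, 1.60 and 0.31 in these 3 comparisons, with no call changed.

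The number of genes past the threshold in primed against naive libraries, 16 as reported, was 0 with no filter, no variance trend or the 2 groups alone, 1 with the macrophage covariate, 51 with the replicate block (13 of the 16 among them), 733 with sample weights, and 0 to 356 with 1 library left out. In non-primed against naive libraries, 22 as reported, it was 0 with no filter, 5 without a variance trend, 7 with the 2 groups alone, 13 with a robust prior, 1 with the macrophage covariate, 621 with sample weights, and 0 to 355 with 1 library left out. With the replicate block it was 17, of which 5 were among the 22. Between primed and non-primed libraries it was 2109 with sample weights and 0 in the other alternatives run, leaving out each library included (0 to 0). The cause of these shifts was not tested.

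For the other 5 measured members, 266 of 285 alternative values kept their sign. Many of these could not change it. Filters, priors, the variance trend, the 2 groups alone and the replicate block leave a difference of group means as it is. So does leaving out a library of the group that is not compared. The count is therefore no measure of stability. Of 3747 alternative values of the other named genes, 51 passed although the reported value did not, with sample weights, without naive 2 or naive 3 or, for 1 of them, without primed 1, and 1 turned past the threshold: Acta1, a muscle marker, at 1.34 between primed and non-primed libraries with sample weights. Equal library medians moved the median difference of all genes by less than 0.1. With 3 libraries per group and unknown depth, differences of the glial genes of the size of their SE, 0.45 to 0.64, could not be resolved.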
